A study of Mus musculus with 10 samples.

Results

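The net change in the transcriptome of wild type mouse cells between the embryonic stem (ES) cell state and day 14 of cardiac differentiation was described from 3 of the 10 libraries of the series: 2 libraries of wild type day 14 cultures and 1 library of wild type day 0 ES cells. The day 14 cultures were wild type per the labels, had the strain background 129x1 x 129S1, and grew out of embryoid bodies made in hanging drops. The day 0 cells had the same genotype and background and were kept as ES cells in serum with leukemia inhibitory factor (LIF), the cytokine that holds them undifferentiated. The remaining libraries, wild type day 8 (2) and Rybp-null days 0, 8 and 14 (1, 2 and 2), entered the fit that estimates the spread, and the wild type day 8 libraries are quoted where the course between the ends matters. The labels number the day 14 replicates but do not say whether they came from separate cultures, so p-values measure the spread between these samples, which may be technical. With 1 library, day 0 has no spread of its own and was assumed to vary like the other groups. A gene that did not pass the test is not shown to be unchanged, least of all where its change is small.

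ES cells hold a self-reinforcing network of transcription factors around Pou5f1 (Oct4), Sox2 and Nanog, supported by LIF signalling through Stat3. Once LIF is withdrawn and the cells aggregate, the network shuts down and the aggregates form derivatives of the germ layers, among them beating cardiomyocytes, together with smooth muscle, endothelium, blood and connective tissue cells. Cardiomyocytes are recognised by the sarcomere, in which thick myosin and thin actin filaments are held in register by titin and the Z-disc, and by calcium cycling through the sarcoplasmic reticulum. A bulk library averages over all cells of the dish, so more cells of a type and more RNA per cell cannot be told apart.

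Library totals were 3143829 and 3812029 counts at day 14 and 3419681 counts at day 0, with 19697 and 20112 genes at day 14 and 18428 genes at day 0 having at least 1 count. At this depth 3 counts equal 0.954 and 0.787 CPM (counts scaled to a library of 1000000) in the day 14 libraries and 0.877 CPM in the day 0 library, before scaling. Spearman correlation across genes was 0.969 between the day 14 replicates, and 0.701 and 0.69 between each of them and day 0. Levels below are CPM scaled by the trimmed mean of M values (TMM); they are not corrected for gene length and are compared between samples only. A log2 fold change is day 14 over day 0 unless another pair is named, with its standard error (SE) and a Benjamini-Hochberg adjusted p from edgeR's quasi-likelihood test. Where the lower group held 0 counts the fold is a lower bound against 3 counts over the group, and where it held 1 to 3 counts the ratio is given with its 95% counting interval; both cover counting error only.

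The day 0 library carried the markers of its label and the day 14 libraries lost them. The summed level of 10 ES cell markers was 57.2 and 43.1 CPM at day 14, against 6539 CPM at day 0. The label of the day 14 samples, a cardiac culture, was met in part: 14 and 16 of 16 cardiomyocyte markers had a count at day 14, with sums of 1112 and 989 CPM, against 8 of 16 and 369 CPM at day 0. Of the day 0 sum 341 CPM came from Ttn alone. The cardiac homeobox gene Nkx2-5 had 0 and 0.255 CPM at day 14 and 0 CPM at day 0, and the atrial natriuretic peptide gene Nppa had the same values, at most 1 count in a library. Markers of other cell types were present at day 14 as well. The 8 fibroblast and mesenchyme markers summed to 11340 and 11855 CPM at day 14, against 23.8 CPM at day 0, with Dcn and Lum at 0 there, and the 6 macrophage markers to 269 and 387 CPM, against 0 CPM. How far this makeup of the dish enters the gene changes below was not tested.

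Of 15819 genes tested, 7097 (44.9%) passed an adjusted p of 0.05, 3805 (24.1%) higher and 3292 (20.8%) lower at day 14. By at least 2-fold 3554 were higher and 2806 lower, and by at least 8-fold 1731 were higher and 888 lower. An unadjusted p under 0.05 was reached by 8344 genes. Of the higher genes 760 had 0 counts at day 0, and of the lower genes 263 had 0 counts in both day 14 libraries. The median over all genes tested was 0.18 on the log2 scale. Without day 14 replicate 1 there were 5722 calls and without replicate 2 there were 5409, and 78.8% and 74.7% of the 7097 genes kept their call and direction in those fits.

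**Figure D1:**
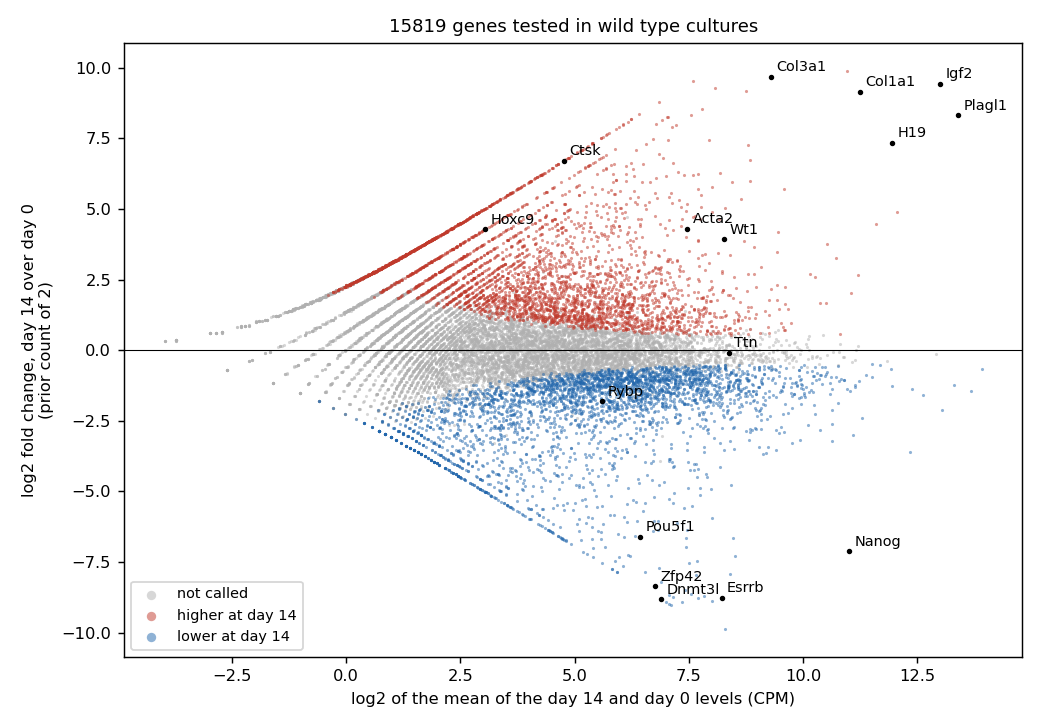
Each point is 1 of the 15819 genes tested, except that genes without a count on both days are not drawn; the x axis is the log2 of the mean of its day 14 and day 0 levels in CPM and the y axis its log2 fold change, day 14 over day 0, with a prior count of 2 that pulls low genes toward 0. Red points are the 3805 genes higher at day 14, blue points the 3292 lower, grey points were not called, and black points are named genes; Igf2, Plagl1 and the collagens lie at the upper right and Nanog and Esrrb at the bottom.

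Among the 10 genes with the largest increases were a growth factor, a transcription factor and several matrix genes. Plagl1 (ENSMUSG00000019817, chromosome 10), a DNA-binding zinc finger protein of an imprinted locus, was at 20111 and 22688 CPM at day 14, against 66.3 CPM at day 0, with 8.33 as its log2 fold change (SE 0.45, adjusted p = 1.87e-07). Igf2 (chromosome 7), a fetal growth factor expressed from the paternal allele, was at 14091 and 18541 CPM at day 14, against 23.1 CPM at day 0, 9.46 on the log2 scale (SE 0.49, adjusted p = 1.5e-07). Both day 14 libraries lay far above the day 0 library for these genes. Dcn, the small proteoglycan decorin, had 0 counts at day 0 and was at 373 and 397 CPM at day 14, at least 390.4-fold higher (adjusted p = 1.17e-07). Angptl7, a secreted angiopoietin-like protein, was at 181 and 279.5 CPM, against 0 CPM, at least 237-fold higher (adjusted p = 0.000145). The collagens Col1a1, Col1a2 and Col3a1, the heparin-binding growth factor Ptn, the Notch-like surface protein Dlk1 and the IGF-binding protein Igfbp5 complete the 10.

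The 10 genes with the largest decreases were pluripotency genes and a group of zinc finger genes of chromosome 4. Esrrb, an orphan nuclear receptor of the ES cell network, was at 0.912 and 0.766 CPM at day 14, against 594 CPM at day 0, −9.42 on the log2 scale (SE 0.47, adjusted p = 1e-07). Fbxo15, an F-box protein long used as an ES cell reporter gene, was at 3.04 and 1.53 CPM at day 14, against 673 CPM at day 0 (−8.22, SE 0.34, adjusted p = 6.52e-08). Dnmt3l, the catalytically inactive cofactor of the de novo DNA methyltransferases, had 0 counts in both day 14 libraries and 237 CPM at day 0, at least 569-fold lower at day 14 (adjusted p = 6.64e-07). Zfp42 (Rex1) was at 0.304 and 0 CPM at day 14, against 216 CPM at day 0, with a day 0 to day 14 ratio of 1559 (279 to 61682). Dppa5a was at 0.608 and 0.255 CPM, against 372 CPM.

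The other 5 were Zfp600, Zfp980, Zfp534, Rex2 and Zfp978, which lie near each other on chromosome 4. Rex2 was at 0 and 0.766 CPM at day 14, against 341 CPM at day 0, and Zfp600 at 0 and 0 CPM, against 269 CPM, at least 645-fold lower at day 14. Between the outermost of the 5, in the gene order of GENCODE vM21, lie 71 annotated genes, of which 50 had a row in the table and 32 were tested. Of these 32 genes 29 were lower, 0 higher and 3 did not pass, and their median log2 fold change was −6.73. The interval was chosen after these falls were seen. Members of this zinc finger cluster are closely related and can share reads, so the value of any single gene there is uncertain.

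The core factors of the pluripotency network were all lower at day 14. Sox2 (chromosome 3) was at 3.04 and 4.34 CPM at day 14, against 182 CPM at day 0, −5.60 on the log2 scale (SE 0.31, adjusted p = 1.87e-07). Pou5f1 (chromosome 17) was at 0.912 and 1.53 CPM at day 14, against 172 CPM at day 0 (−7.07, SE 0.46, adjusted p = 3.8e-07). Nanog (chromosome 6) was at 36.5 and 21.4 CPM at day 14, against 4088 CPM at day 0 (−7.15, SE 0.60, adjusted p = 4.81e-05). Day 14 and day 0 were far apart for all 3 genes. Pou5f1 and Nanog have processed pseudogenes that may share reads, so their levels are uncertain.

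Of 16 naive pluripotency factors, all tested, 13 were lower and 1 was higher, with a median log2 fold change of −4.26. The factor that was higher is Stat3, the transducer of LIF signals, at 243 and 336 CPM at day 14, against 104 CPM at day 0 (1.47, SE 0.26, adjusted p = 0.000755). The LIF receptor Lifr (42.6 and 48.5 CPM, against 36.6 CPM) and the feedback inhibitor Socs3 (3.65 and 3.83 CPM, against 7.92 CPM) did not pass. Nr0b1 (27.4 CPM at day 0) was at least 65.8-fold lower and Prdm14 (12.2 CPM at day 0) at least 29.3-fold lower, both with 0 counts at day 14. Of 21 general pluripotency genes tested 21 were lower, with a median of −5.69, and Foxd3 was not tested. Examples are the growth factor coreceptor Tdgf1 (Cripto), at 4.26 and 3.83 CPM, against 719 CPM, and the chromatin-associated protein Dppa2, at 0.608 and 0.255 CPM, against 147 CPM. Across the genes tested 20.8% were lower.

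The shared motif of the octamer-binding factors, of which Pou5f1 is one, was looked for in the 300 bases from 250 before to 50 after the start of each gene. Its letters ATGCAAA, on either strand, were in 3 of the 26 promoters found for 38 pluripotency genes (11.5%: Nanog, Sox2 and Zfp42), in 1 of 46 promoters of muscle genes (2.17%) and in 1241 of 27025 promoters (4.59%). The Nanog promoter is shown because its gene is one of those that fell; it is RefSeq sequence on build GRCm38.p6, chr6:122707239-122707538, plus strand, and the capitals mark the match, read here on the opposite strand, 75 bases before the start.
Nanog: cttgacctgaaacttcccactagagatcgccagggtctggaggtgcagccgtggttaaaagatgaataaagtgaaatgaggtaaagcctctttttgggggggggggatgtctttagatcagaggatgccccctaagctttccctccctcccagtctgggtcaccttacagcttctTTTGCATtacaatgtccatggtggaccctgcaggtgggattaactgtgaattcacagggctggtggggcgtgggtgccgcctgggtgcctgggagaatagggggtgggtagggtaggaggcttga
A match is a description of the sequence and was not tested as a binding site.

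Germline genes, many of which ES cells transcribe at low level, were mostly lower. Of 22 tested, 18 were lower and 0 higher, with a median of −4.36. The testis gene Rnf17, whose protein carries tudor domains, was at 0.912 and 0.255 CPM at day 14, against 90.4 CPM at day 0 (−7.26, SE 0.48, adjusted p = 4.76e-07). Of the meiotic genes, which had 0 counts at day 14, Syce1 was at least 38-fold lower and Hormad1 at least 26.1-fold lower. Mael, a piRNA pathway protein, was at 0 and 0.255 CPM, against 20.5 CPM, a day 0 to day 14 ratio of 147 (25.5 to 5914). The genes of the primed state and primitive streak were mostly too low to test at these days: 11 of 16 did not pass the filter on low counts. Of the 5 tested 2 were higher and 1 lower, with a median of 0.83, and the count of higher genes moved without either day 14 replicate. The lower one was Otx2, a homeobox gene of the epiblast and anterior brain, at 14.6 and 4.59 CPM, against 55.1 CPM (−2.54, SE 0.48, adjusted p = 0.00107).

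**Figure D2:**
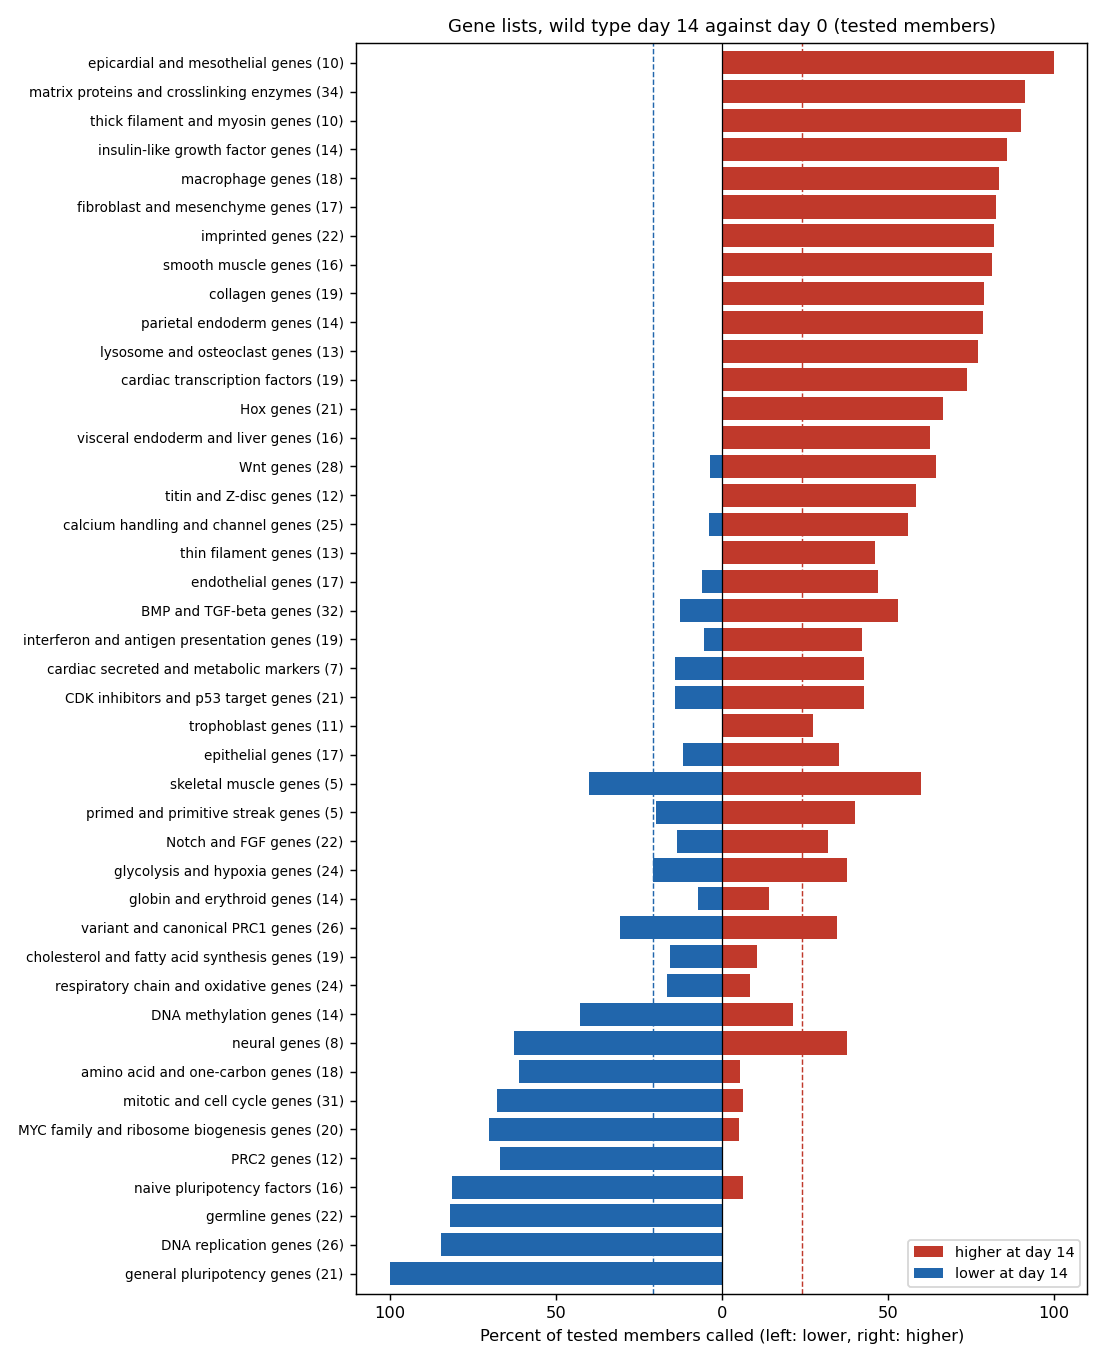
For each gene list with the number of tested members in brackets, the bar to the right is the percent of tested members higher at day 14 and the bar to the left the percent lower (adjusted p under 0.05); dashed lines are the percents over all genes tested, 24.1 higher and 20.8 lower. Epicardial, matrix and thick filament lists stand at the top, and general pluripotency, DNA replication and germline lists at the bottom.

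The listed genes that write and read DNA methylation were called in both directions. Of 14 tested, 3 were higher (21.4%) and 6 lower (42.9%), against 24.1% and 20.8% over all genes tested. The de novo methyltransferase Dnmt3b was at 41.1 and 27.6 CPM at day 14, against 423 CPM at day 0 (−3.63, SE 0.57, adjusted p = 0.00114), while its paralog Dnmt3a was at 505 and 605 CPM at day 14, against 152 CPM at day 0 (1.87, SE 0.27, adjusted p = 0.000146). These paralogs changed in opposite directions. Tet1, which oxidises methylcytosine, was at 17.6 and 18.1 CPM, against 351 CPM (−4.29, SE 0.25, adjusted p = 2.18e-07). Zfp57, which protects imprints, fell by 2.82 on the log2 scale, and the maintenance enzyme Dnmt1 was at 1020.1 and 854 CPM, against 1025 CPM, which did not pass (−0.13, SE 0.19, adjusted p = 0.599).

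Polycomb repressive complex 2 (PRC2), which methylates histone H3 at silent developmental genes, had 8 lower and 0 higher of 12 tested genes, with a median of −1.6. The enzyme Ezh2 was at 121 and 112 CPM at day 14, against 447 CPM at day 0 (−1.94, SE 0.22, adjusted p = 2.84e-05). The core subunit Eed fell by 2.21 and the accessory subunits Mtf2 and Jarid2 by 2.96 and 2.83, and Epop, another accessory subunit, was at 0.608 and 1.02 CPM, against 56.4 CPM (−6.03, SE 0.75, adjusted p = 5.5e-05). In PRC1, which ubiquitinates histone H2A, 9 of 26 tested genes were higher (34.6%) and 8 lower (30.8%). Over all genes tested 24.1% were higher and 20.8% lower. Rybp (ENSMUSG00000072872, chromosome 6), the subunit the study deleted in its other cells, was at 19.5 and 23.5 CPM at day 14, against 76.2 CPM at day 0, −1.82 on the log2 scale (SE 0.33, adjusted p = 0.000728). Its paralog Yaf2 was at 21.6 and 17.6 CPM, against 10.6 CPM, and did not pass (0.89, SE 0.42, adjusted p = 0.0995).

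Within PRC1 some paralogs changed in opposite directions. The chromobox protein Cbx7 was at 7.91 and 6.13 CPM at day 14, against 72.2 CPM at day 0 (−3.37, SE 0.41, adjusted p = 4.59e-05), and the Polyhomeotic homolog Phc1 at 54.1 and 53.1 CPM, against 531 CPM (−3.31, SE 0.23, adjusted p = 6.64e-07). Phc2, a paralog of Phc1, was higher, at 9.73 and 20.4 CPM, against 1.32 CPM (3.49, SE 0.75, adjusted p = 0.00262), as was Bcorl1, a homolog of the PRC1 corepressor Bcor (2.81, SE 0.49, adjusted p = 0.000629). The ubiquitin ligase Rnf2 fell by 1.01 (SE 0.23, adjusted p = 0.00401).

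Most listed genes of the cell cycle and DNA replication were lower at day 14. Of 31 mitotic and cell cycle genes tested 21 were lower and 2 higher (median −1.23), and of 26 DNA replication genes 22 were lower and 0 higher (median −1.42). Cyclin B1, Ccnb1, averaged 23.4 ± 6.03 CPM at day 14 (SD, n = 2), against 163 CPM at day 0 (−2.80, SE 0.28, adjusted p = 1.11e-05), and the clamp loader subunit Rfc4 at 3.65 and 3.83 CPM, against 45.2 CPM (−3.58, SE 0.36, adjusted p = 1.01e-05). The 2 higher genes were both D-type cyclins, Ccnd2 at 11.6 and 17.1 CPM, against 2.64 CPM, and Ccnd3 at 124 and 165 CPM, against 47.2 CPM. Mki67, the proliferation antigen Ki-67, was at 735 and 727 CPM, against 846 CPM, and did not pass (−0.21, SE 0.18, adjusted p = 0.349).

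Cdkn1a (p21), an inhibitor of cyclin-dependent kinases, was at 246 and 304 CPM at day 14, against 36.6 CPM at day 0 (2.91, SE 0.27, adjusted p = 5.61e-06), and its imprinted relative Cdkn1c (p57) at 172 and 174 CPM, against 25.1 CPM (2.78, SE 0.33, adjusted p = 3.6e-05). Over all genes tested 24.1% were higher and 20.8% lower. Of 21 genes of the list of kinase inhibitors and p53 targets 9 were higher (42.9%), 3 lower (14.3%) and 9 did not pass. Trp53 itself was among the lower ones, at 185 and 246 CPM, against 748 CPM (−1.80, SE 0.24, adjusted p = 7.52e-05). Of 20 MYC family and ribosome biogenesis genes 14 were lower and 1 higher, with a median of −1.62; Mycn was at 22.5 and 18.6 CPM, against 142 CPM, and the nucleolar protein Nop56 at 369 and 286 CPM, against 2335 CPM. The higher one was Mxd4, a MAX partner that opposes MYC, at 12.2 and 19.7 CPM, against 0.99 CPM, with a ratio of 16.4 (5.48 to 80.7).

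Most tested genes of the list of cardiac transcription factors were higher at day 14, though some are listed for other tissues as well. Of 24 genes in the list 19 were tested, 14 were higher and 0 lower, with a median of 5.61, or 4.11 where a gene without counts takes its bound. Gata6 had 0 counts at day 0 and 68.7 and 63 CPM at day 14, at least 66.3-fold higher (adjusted p = 6.02e-05). Hand2, a basic helix-loop-helix factor needed for the right ventricle, was at 40.8 and 55.6 CPM at day 14, against 0 CPM at day 0, at least 49.4-fold higher (adjusted p = 4.52e-05). Without a count at day 0 as well, Hand1 was at least 16.3-fold higher and Prdm6 at least 18.4-fold higher. Gata6 is also in the parietal endoderm list and Hand1 in the trophoblast list. Nkx2-5 was too low to test. The progenitor gene Isl1 of the second heart field was at 1.52 and 0.511 CPM, against 0.33 CPM, and did not pass (ratio 2.94, 0.378 to 133, adjusted p = 0.405). Smyd1, a muscle methyltransferase, did not pass either, at 16.7 and 24.2 CPM, against 12.9 CPM (0.68, SE 0.38, adjusted p = 0.161).

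Myosin genes of the thick filament were nearly all higher. Of 10 tested 9 were higher and 0 lower, and 3 of the 13 listed were too low to test. The alpha and beta cardiac myosin heavy chains were Myh6, at 132 and 112 CPM at day 14, against 5.94 CPM at day 0 (4.35, SE 0.85, adjusted p = 0.00316), and Myh7, at 49 and 32.7 CPM, against 0.99 CPM, a ratio of 40.5 (13.7 to 198, adjusted p = 0.000392). Both lie on chromosome 14. The ventricular light chain Myl2 was at 17.9 and 13.8 CPM, against 0 CPM, at least 15.8-fold higher. The atrial light chain Myl7 was at 2.43 and 1.53 CPM, against 0 CPM, at least 1.96-fold higher (adjusted p = 0.03), and no longer passed without day 14 replicate 1 (adjusted p = 0.0756). The M-band protein Myom1 was at 48.4 and 31.1 CPM, against 0.99 CPM, a ratio of 39.4 (13.3 to 192).

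Among 13 thin filament genes tested, 6 were higher and 0 lower. Cardiac actin Actc1 (chromosome 2) was at 184 and 119 CPM at day 14, against 0 CPM at day 0, at least 150.2-fold higher (adjusted p = 0.00141). Cardiac troponin T, Tnnt2 (chromosome 1), was at 281 and 318 CPM, against 0.66 CPM, a ratio of 456 (126 to 3769.8, adjusted p = 0.000601). The slow skeletal and fetal cardiac inhibitory subunit Tnni1 was at least 14.7-fold higher, while the adult cardiac isoform Tnni3 was at 11.6 and 8.93 CPM, against 4.62 CPM, and did not pass (1.14, SE 0.76, adjusted p = 0.242). Of 12 titin and Z-disc genes tested, 7 were higher and 0 lower. They include the intermediate filament desmin, Des, at 46.8 and 56.9 CPM, against 5.61 CPM (3.20, SE 0.58, adjusted p = 0.000808), and the small heat shock protein Cryab, at 52.3 and 54.1 CPM, against 1.32 CPM (5.30, SE 0.47, adjusted p = 4.22e-06). Actn2, alpha-actinin of the Z-disc, was at 4.56 and 11.7 CPM, against 1.98 CPM (2.04, SE 0.78, adjusted p = 0.0489), and did not pass without day 14 replicate 2 (1.19, adjusted p = 0.279).

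Titin was an exception. Ttn (ENSMUSG00000051747, chromosome 2), the elastic filament that spans the sarcomere, was at 347 and 292 CPM at day 14, against 341 CPM at day 0, −0.09 on the log2 scale (SE 0.28, adjusted p = 0.81). The day 0 level lay between the day 14 replicates, and the sign turned without replicate 2 (0.03). At day 8 Ttn was at 1259 and 918 CPM, and day 14 was lower than day 8 by a log2 fold change of −1.77 (adjusted p = 0.00162 for that pair).

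**Figure D3:**
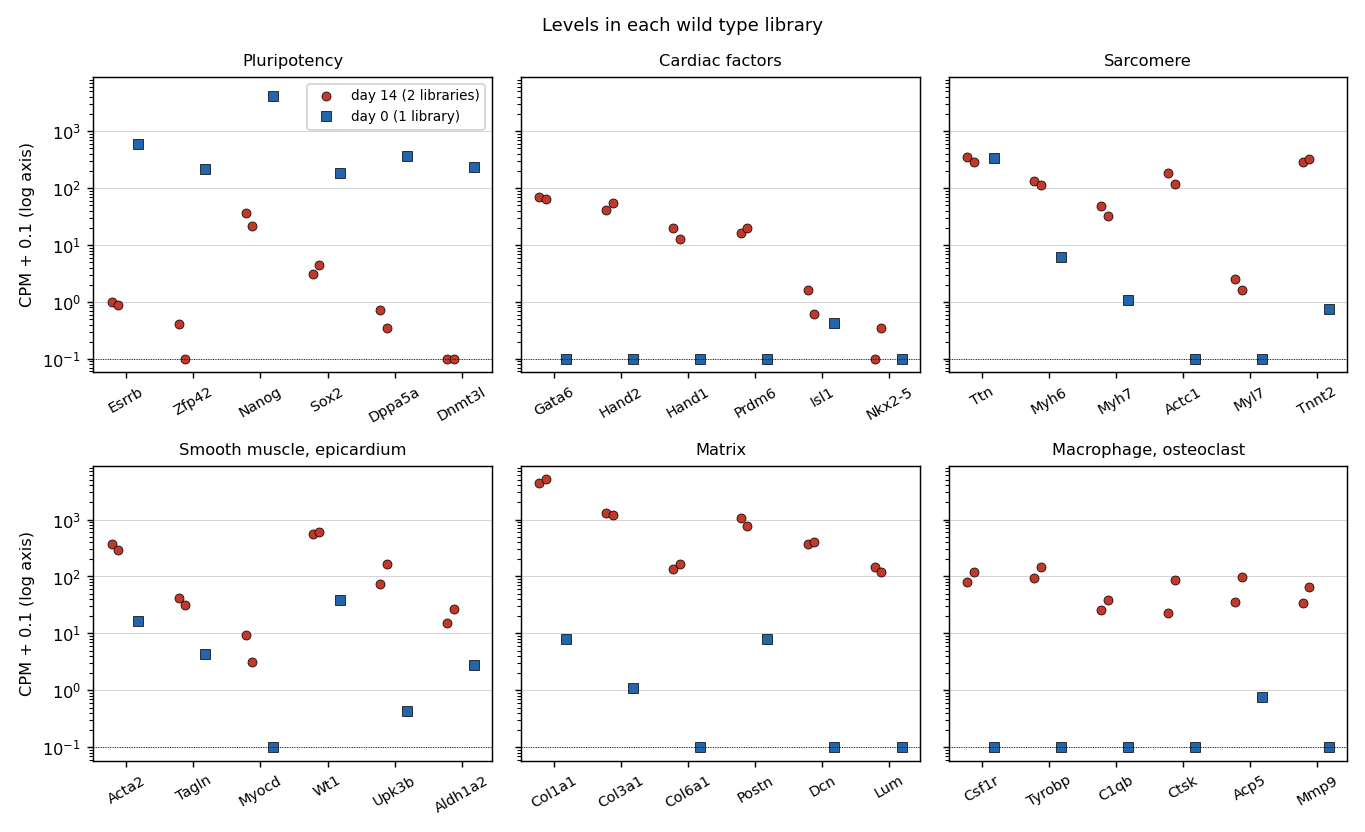
Level of genes in each library, 6 to a panel, on a log axis of CPM plus a small constant; a gene without a count lies on the dotted line. Red circles are the 2 day 14 libraries and blue squares the day 0 library; Ttn is the gene whose day 0 level lies between the day 14 levels, and Nkx2-5 lies at or next to the line in all 3.

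Muscle genes share a promoter element, the CArG box, the recognition site of serum response factor. It was found, on either strand, in 9 of the 46 promoters that matched the 58 sarcomere and smooth muscle genes (19.6%: Acta1, Actc1, Cnn2, Fhl2, Ldb3, Myl3, Myl7, Myl9 and Myom1), in 0 of 26 promoters of pluripotency genes and in 425 of 27025 promoters (1.57%). Of these 9 genes Actc1, Fhl2, Myl3, Myl7, Myl9 and Myom1 were higher at day 14, and Acta1, Cnn2 and Ldb3 did not pass. The promoters of Actc1, Fhl2 and Myom1 are shown because their genes were called higher and the box lies within 100 bases of the start, at 47, 96 and 99 bases before it; they were picked after the matches were seen. The sequences are from RefSeq on GRCm38.p6, 5′ to 3′ in the direction of the gene, chr2:114052826-114053125 minus strand for Actc1, chr1:43196712-43197011 minus strand for Fhl2 and chr17:71019307-71019606 plus strand for Myom1, with the box in capitals.
Actc1: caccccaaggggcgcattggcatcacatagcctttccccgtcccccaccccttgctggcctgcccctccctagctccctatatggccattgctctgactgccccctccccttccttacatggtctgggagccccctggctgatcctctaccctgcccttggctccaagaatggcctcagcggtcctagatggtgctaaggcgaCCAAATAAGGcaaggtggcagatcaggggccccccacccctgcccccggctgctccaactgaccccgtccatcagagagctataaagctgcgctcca
Fhl2: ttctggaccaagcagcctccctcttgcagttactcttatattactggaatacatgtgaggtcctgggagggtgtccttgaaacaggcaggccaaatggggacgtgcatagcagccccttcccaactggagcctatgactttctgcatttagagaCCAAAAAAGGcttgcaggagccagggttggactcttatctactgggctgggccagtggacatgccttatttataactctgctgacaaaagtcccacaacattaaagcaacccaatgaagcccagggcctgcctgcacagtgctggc
Myom1: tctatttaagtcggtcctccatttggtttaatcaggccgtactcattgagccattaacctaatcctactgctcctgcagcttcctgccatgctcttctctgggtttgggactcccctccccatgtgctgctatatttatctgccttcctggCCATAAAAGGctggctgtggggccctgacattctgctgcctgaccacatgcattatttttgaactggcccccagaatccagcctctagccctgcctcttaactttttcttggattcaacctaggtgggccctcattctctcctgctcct
Fhl2, a LIM domain protein of the Z-disc, was at 23.7 and 22.5 CPM at day 14, against 0.33 CPM at day 0, a ratio of 69.8 (12.4 to 2775). The letters alone do not show that the factor binds there.

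Calcium handling genes rose in part. Of 29 genes in the list 25 were tested, 14 were higher and 1 lower, with a median of 2.58, or 1.58 with bounds. The sodium-calcium exchanger Slc8a1 was at 141 and 111 CPM at day 14, against 0 CPM at day 0, at least 126-fold higher (adjusted p = 3.11e-06), and junctophilin Jph2, which couples the cell membrane to the sarcoplasmic reticulum, was at least 17.9-fold higher. The calcium release channel Ryr2 was at 39.8 and 33.4 CPM, against 12.2 CPM (1.58, SE 0.38, adjusted p = 0.00493). The L-type channel Cacna1c was at 18.2 and 23.5 CPM, against 0.66 CPM, a ratio of 32 (8.7 to 266). The lower gene was the calcium pump Atp2a2 (SERCA2), at 334 and 344 CPM, against 646 CPM (−0.93, SE 0.18, adjusted p = 0.00153). The connexin Gja1 did not pass, at 140.2 and 165 CPM, against 104 CPM.

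Smooth muscle genes were higher as a group. Of 16 tested 13 were higher and 0 lower, with a median of 2.61. Acta2, smooth muscle actin, was at 375 and 296 CPM at day 14, against 16.5 CPM at day 0 (4.34, SE 0.44, adjusted p = 1.37e-05), and the kinase Mylk at 178 and 245 CPM, against 3.96 CPM (5.73, SE 0.95, adjusted p = 0.00173). Tagln (transgelin) was at 42 and 31.4 CPM, against 4.29 CPM. Myh11, the smooth muscle myosin heavy chain, was at 7.3 and 12.8 CPM, against 1.98 CPM (2.33, SE 0.73, adjusted p = 0.0213), and did not pass without day 14 replicate 2 (1.87, adjusted p = 0.118). The coactivator Myocd was at 9.12 and 3.06 CPM, against 0 CPM, at least 5.89-fold higher (adjusted p = 0.0277), a call that was lost without day 14 replicate 1 (adjusted p = 0.0757). Calponin, Cnn1, was at 5.17 and 4.59 CPM, against 4.62 CPM, and did not pass.

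Endothelial genes were higher in part. Of 17 tested 8 were higher (47.1%) and 1 lower (5.9%), against 24.1% and 20.8% over all genes tested. Cdh5, the cadherin of endothelial junctions, was at 19.5 and 6.64 CPM at day 14, against 0 CPM at day 0, at least 12.6-fold higher (adjusted p = 0.00102), and the VEGF receptor Kdr at 79.4 and 43.6 CPM, against 2.31 CPM (4.71, SE 0.65, adjusted p = 0.000134). Pecam1, an adhesion molecule of endothelium that ES cells also express, was at 16.4 and 20.2 CPM, against 55.8 CPM (−1.60, SE 0.32, adjusted p = 0.00152). Few globin and erythroid genes passed: of 14 tested 2 were higher and 1 lower, with a median of 3.57, or 2.34 with bounds, and the counts moved with single libraries, to 4 higher and 0 lower without day 14 replicate 2 and to 2 lower without replicate 1. The embryonic globin Hba-x was at 13.7 and 1.79 CPM, against 0 CPM, and did not pass (adjusted p = 0.255).

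Several members of these groups had their highest values at day 8. Against day 8, 390 genes (2.47%) were higher and 249 (1.57%) lower at day 14. On days 0, 8 and 14 Hba-x was at 0 CPM, at 595 and 685 CPM, and at 13.7 and 1.79 CPM. The embryonic beta-like globins Hbb-y (168 and 121 CPM at day 8) and Hbb-bh1 (58.1 and 61.7 CPM) had at most 1 CPM in each library of days 0 and 14. Of the 14 erythroid genes tested 13 were lower at day 14 than at day 8. Of the 19 cardiac factors tested 5 were lower and 0 higher, of the sarcomere genes 2 of 10 thick filament, 2 of 13 thin filament and 1 of 12 titin and Z-disc genes were lower and 0 higher, and of the 17 endothelial genes 3 were lower and 0 higher.

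Smyd1 was at 12.9 CPM at day 0, at 91.7 and 97.5 CPM at day 8, and at 16.7 and 24.2 CPM at day 14 (day 14 over day 8 −2.20, adjusted p = 0.00123). The angiopoietin receptor Tek was at 15.2 CPM at day 0, at 204 and 193 CPM at day 8, and at 64.2 and 64.3 CPM at day 14 (−1.63, adjusted p = 0.00117). The heme synthesis enzyme Alas2 was at 1.32 CPM at day 0, at 47 and 42.8 CPM at day 8, and at 2.43 and 2.3 CPM at day 14 (−4.23, adjusted p = 6.15e-05). Cardiac actin and myosin also had their highest values at day 8, Actc1 at 369.9 and 375 CPM and Myh6 at 182 and 179 CPM, but day 14 against day 8 did not pass for them (adjusted p = 0.264 and 0.646). Of 63 named genes that passed between these days 16 did so without any 1 of the 4 libraries compared, among them Ttn, Smyd1, Tek, Alas2, Hbb-y and Hbb-bh1. Hba-x no longer passed without day 14 replicate 2 or without either day 8 library. All genes together, the calls fell to 309 without day 14 replicate 1, 131 without day 14 replicate 2, 177 without day 8 replicate 1 and 108 without day 8 replicate 2.

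**Figure D4:**
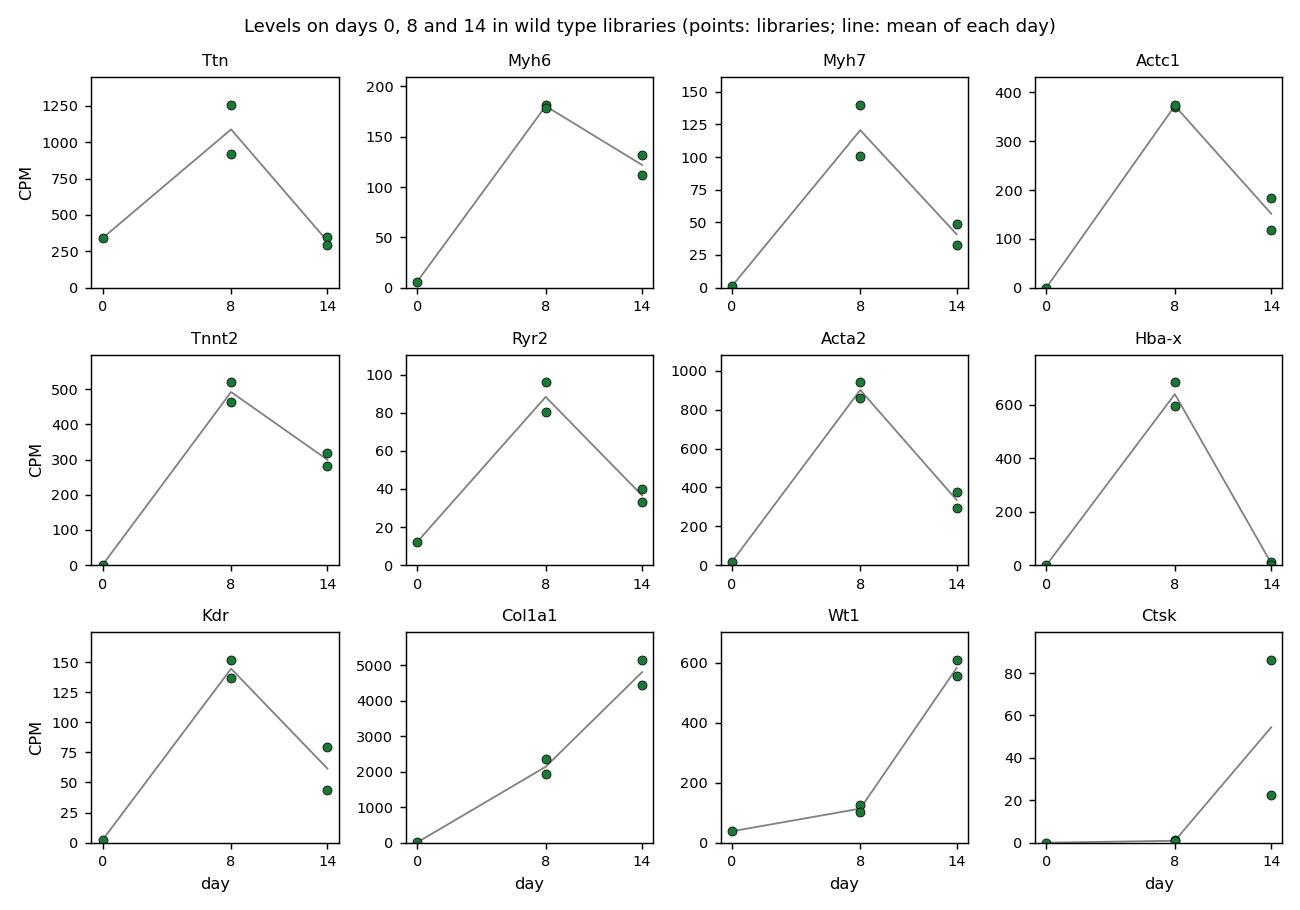
Levels of 12 genes in CPM on days 0, 8 and 14, each panel with its own linear axis from 0; points are libraries (1 at day 0, 2 at each later day) and lines join the means. The muscle, globin and endothelial genes have their highest mean at day 8, and Col1a1, Wt1 and Ctsk at day 14.

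Epicardial and mesothelial genes were higher at day 14 in all members that could be tested, 10 of 10. Tcf21, Tbx18 and Msln were too low to test. Genes without a count at day 0, such as Aldh1a1 and Upk1b, passed the filter on low counts through later days. The count of higher members is therefore a description, as in the other lists. The epicardium is the outer cell layer of the heart and a source of its fibroblasts and vascular smooth muscle. Wt1, its zinc finger transcription factor, was at 554 and 609.8 CPM at day 14, against 37.9 CPM at day 0 (3.94, SE 1.09, adjusted p = 0.0299). Aldh1a1, a retinaldehyde dehydrogenase, was at 89.1 and 117 CPM, against 0 CPM, at least 105-fold higher (adjusted p = 9.95e-05), and its paralog Aldh1a2 at 15.2 and 26.3 CPM, against 2.64 CPM (2.96, SE 0.79, adjusted p = 0.00933), which did not pass without day 14 replicate 2 (2.51, adjusted p = 0.0523). The uroplakins Upk1b and Upk3b, membrane proteins of mesothelium and urothelium, were at 57.5 and 85 CPM, against 0 CPM (at least 73.2-fold higher), and at 72.4 and 163 CPM, against 0.33 CPM (ratio 369, 66.1 to 14606). At day 8 Aldh1a1 had still been at 0 and 0.564 CPM, and day 14 was higher than day 8 (8.28, adjusted p = 0.000381).

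Connective tissue genes were higher as a group. Of 17 fibroblast and mesenchyme genes tested 14 were higher and 0 lower (median 3.62), of 19 collagens 15 and 0 (median 6.21, or 5.88 with bounds), and of 34 other matrix and crosslinking genes 31 and 0 (median 3.81, or 3.19 with bounds). Col1a1 and Col1a2, the chains of type I collagen, were at 4450.3 and 5155 CPM and at 3890.3 and 4030 CPM at day 14, against 7.92 and 3.63 CPM at day 0, with log2 fold changes of 9.24 (SE 0.86, adjusted p = 8e-05) and 10.08 (SE 0.57, adjusted p = 2.57e-07). Col3a1 was at 1292 and 1219 CPM, against 0.99 CPM, a ratio of 1265 (433 to 6136). The replicates lay close together beside these differences. Col6a1 and Col6a2, which share a locus on chromosome 10, had 0 counts at day 0; Col6a1 was at least 154-fold higher and Col6a2 at least 68-fold higher.

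The matricellular protein periostin, Postn, was at 1045 and 762 CPM at day 14, against 7.92 CPM at day 0 (6.83, SE 0.69, adjusted p = 6.19e-05). Its day 8 levels were higher still, 5050.3 and 4324 CPM. Lox, the enzyme that crosslinks collagen and elastin, was at 20.4 and 28.3 CPM, against 0 CPM, at least 25-fold higher (adjusted p = 0.000652), and the gelatinase Mmp2 at 123 and 155 CPM, against 0.99 CPM, a ratio of 142 (48.4 to 689). The platelet-derived growth factor receptor Pdgfra, a marker of mesenchyme, was at 142 and 168 CPM, against 1.32 CPM (6.84, SE 0.40, adjusted p = 2.29e-07). Thy1, often used to mark fibroblasts and feeder cells, was at 1.82 and 2.81 CPM, against 1.98 CPM, and did not pass.

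Most macrophage genes were higher at day 14. Of 18 tested 15 were higher and 0 lower, with a median of 8.74, or 4.36 with bounds. The 3 that did not pass, Cd68, Itgam and Laptm5, had counts at day 0: Cd68 was at 76 and 72.5 CPM at day 14, against 48.8 CPM at day 0, Itgam at 13.7 and 16.3 CPM, against 5.61 CPM, and Laptm5 at 61.4 and 77.9 CPM, against 17.2 CPM. Csf1r, the receptor for the macrophage growth factor, was at 79.7 and 118 CPM at day 14, against 0 CPM at day 0, at least 101-fold higher (adjusted p = 6.57e-06). Tyrobp, an adaptor of myeloid receptors, was at 92.8 and 145 CPM, against 0 CPM, at least 123-fold higher (adjusted p = 7.42e-05), and the pan-leukocyte antigen Ptprc (CD45) was at least 39.4-fold higher. For Csf1r, day 14 was also above the 15.3 and 7.05 CPM of day 8 (3.15, adjusted p = 0.000773). In all, 12 of the 18 genes were higher at day 14 than at day 8. The calls of Csf1r and Cd68 between these days held whichever compared library was left out. Those of Tyrobp and Itgam did not.

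Genes of osteoclasts, bone-resorbing cells of the same lineage, were higher as well. Of 13 lysosome and osteoclast genes tested 10 were higher and 0 lower. Cathepsin K, Ctsk, was at 22.5 and 86.3 CPM at day 14, against 0 CPM at day 0, at least 57.8-fold higher (adjusted p = 0.000525). The proton pump subunit Atp6v0d2 was at 22.2 and 54.6 CPM, against 0 CPM, at least 40.2-fold higher, the gelatinase Mmp9 at 34.7 and 65.3 CPM, against 0 CPM, at least 51.9-fold higher, and tartrate-resistant phosphatase Acp5 at 35.9 and 96.2 CPM, against 0.66 CPM, a ratio of 104 (28.7 to 862). In each of these 4 genes replicate 2 was above replicate 1, and both were above day 0. The fusion genes Ocstamp and Dcstamp were too low to test.

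**Figure D5:**
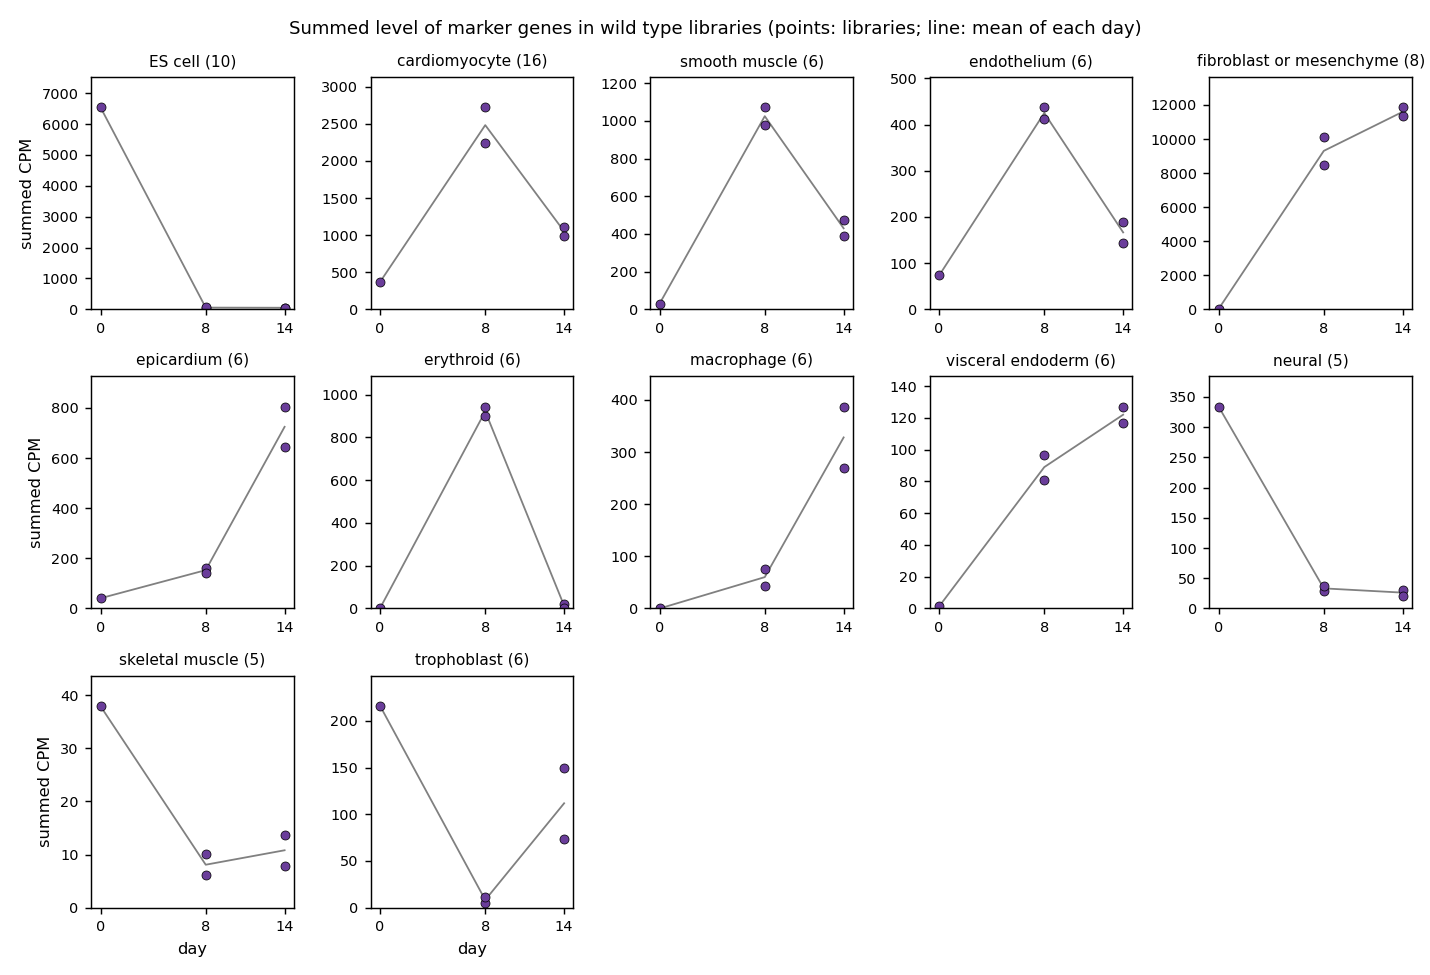
Summed level of marker genes, in CPM, on days 0, 8 and 14, with the number of markers in brackets and a linear axis from 0 in each panel; points are libraries (1 at day 0, 2 at each later day) and lines join the means. ES cell markers are high at day 0, cardiomyocyte, smooth muscle, endothelial and erythroid markers peak at day 8, and epicardial and macrophage markers are highest at day 14.

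Most listed genes of extraembryonic endoderm were higher, but the lists share genes with other tissues. Of 16 visceral endoderm and liver genes tested 10 were higher and 0 lower. Of 14 parietal endoderm genes 11 were higher and 0 lower, and several of these genes are also matrix genes. Gata6 and Pdgfra of that list are also in the cardiac factor and mesenchyme lists. Among the 6 visceral endoderm markers Amn had no count, and Cubn and Hnf4a did not pass (adjusted p = 0.0844 and 0.0749, edgeR). Alpha-fetoprotein, Afp, was at 43.5 and 34.7 CPM at day 14, against 0 CPM at day 0, at least 39.1-fold higher (adjusted p = 0.000128), and transthyretin, Ttr, at least 36.5-fold higher (adjusted p = 0.015). Of 17 epithelial genes 6 were higher and 2 lower, or 0 lower without day 14 replicate 2. With all libraries that is 35.3% higher and 11.8% lower, against 24.1% and 20.8% over all genes tested. The keratin Krt7 was at 53.2 and 63.6 CPM, against 1.32 CPM (5.43, SE 0.65, adjusted p = 4.21e-05). The adhesion molecule Epcam, which ES cells express, was at 27.1 and 22 CPM, against 116 CPM (−2.25, SE 0.59, adjusted p = 0.0117), and missed the threshold without day 14 replicate 2 (−2.10, adjusted p = 0.0541).

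Of 19 neural genes 8 were tested, 3 were higher and 5 lower, or 3 lower without day 14 replicate 2. Stmn2, a neuronal microtubule regulator, was at 3.95 and 1.53 CPM at day 14, against 209 CPM at day 0 (−6.28, SE 0.43, adjusted p = 6.54e-07), and Pax6, a regulator of neural progenitors and eye, at 11.6 and 8.93 CPM, against 60.7 CPM (−2.57, SE 0.49, adjusted p = 0.00113). The adhesion molecule Ncam1, which is not restricted to neurons, was higher, at 509.8 and 594 CPM, against 21.8 CPM (4.66, SE 0.78, adjusted p = 0.00182). Of the skeletal muscle regulators Myod1, Myog and Myf5 no library of the 3 held a count. The fast light chain Mylpf was lower, at 1.52 and 2.3 CPM, against 37.9 CPM (−4.27, SE 0.91, adjusted p = 0.0037).

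Imprinted genes, expressed from 1 parental allele and many of them regulators of fetal growth, were mostly higher. Of 22 tested 0 were lower. That count moved to 1 with DESeq2 size factors in place of TMM, and it also moved without day 14 replicate 1. The median was 3.76, and 18 genes were higher. Beside Plagl1 and Igf2 they include the noncoding RNA H19, at 6899.6 and 8748 CPM at day 14, against 47.5 CPM at day 0 (7.36, SE 0.28, adjusted p = 4.03e-08), the zinc finger gene Peg3, at 8578 and 7889.7 CPM, against 279 CPM (4.88, SE 0.23, adjusted p = 8.09e-08), and Dlk1, at 825 and 907 CPM, against 0.99 CPM, a ratio of 879 (300.5 to 4261). Meg3, the noncoding RNA of the locus of Dlk1, was at 2349 and 1858 CPM, against 347 CPM (2.60, SE 0.32, adjusted p = 4.99e-05). The counts do not separate the alleles, so they say nothing about imprinting itself.

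Insulin-like growth factor genes followed, 12 higher and 0 lower of 14 tested, with H19, Igf2 and Igf2r in both lists. Igf1 was at 206 and 235 CPM at day 14, against 0.33 CPM at day 0, a ratio of 672 (120.5 to 26569.9), and the binding protein Igfbp4 at 748 and 1023 CPM, against 5.28 CPM (7.38, SE 0.47, adjusted p = 3.77e-07). Hox genes, which give cells a position along the body axis, had 14 higher and 0 lower of 21 tested, with a median of 6.03, or 2.0 with bounds. Hoxc9 was at 20.1 and 12.3 CPM, against 0.33 CPM, a ratio of 48 (8.44 to 1911), and Hoxd8, Hoxc4 and Hoxa10, without a count at day 0, were at least 14.6-fold, at least 12.1-fold and at least 11.4-fold higher.

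Counts for ligands and receptors of developmental signalling pathways differed by pathway. In the TGF-beta and BMP families 17 of 32 tested genes were higher and 4 lower, or 1 lower without day 14 replicate 2. Tgfb3 was at 99.2 and 124 CPM at day 14, against 0.66 CPM at day 0, a ratio of 170.4 (47 to 1409), and the receptor Tgfbr2 was at least 44.2-fold higher. Lefty2, an inhibitor of Nodal expressed by ES cells, was at 0.608 and 0.255 CPM, against 28.7 CPM, a day 0 to day 14 ratio of 68.9 (22.8 to 341). Of 28 Wnt pathway genes 18 were higher and 1 lower, or 0 lower without day 14 replicate 2. Wnt5a, a noncanonical ligand, was at 34.4 and 38.3 CPM, against 1.65 CPM (4.44, SE 0.48, adjusted p = 1.87e-05), and the receptor Fzd1 at 48.4 and 43.4 CPM, against 0.33 CPM, a ratio of 138 (24.7 to 5483). Of 22 Notch and FGF genes 7 were higher and 3 lower, or 4 higher without day 14 replicate 1, a called share near the 44.9% over all genes. Fgf4, the growth factor that ES cells make, was at 0.304 and 0 CPM, against 26.7 CPM, a day 0 to day 14 ratio of 193 (33.6 to 7698), while Fgf10 was at 14.3 and 14.5 CPM, against 0 CPM, at least 14.6-fold higher.

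Among trophoblast genes 3 of 11 tested were higher (27.3%) and 0 lower at day 14, against 24.1% and 20.8% over all genes tested. The replicates differed. Without replicate 2 there were 6 higher and 1 lower, and without replicate 1 there were 2 lower. Tpbpa, a gene of the ectoplacental cone and spongiotrophoblast, was at 45.9 and 4.59 CPM at day 14, against 0 CPM at day 0, and did not pass (adjusted p = 0.101). Tfap2c, a transcription factor of trophoblast and germ cells, was at 48.4 and 3.06 CPM, against 214 CPM (−3.09, SE 1.14, adjusted p = 0.0752). Rhox6 and Rhox9, X-linked homeobox genes, had 16.7 and 0.255 CPM (Rhox6) and 27.4 and 0.766 CPM (Rhox9) at day 14, against 1.65 CPM (Rhox6) and 5.28 CPM (Rhox9) at day 0. In each of these genes replicate 1 was the higher one, and for Rhox6 and Rhox9 the day 0 level lay between the replicates. Without replicate 1 Rhox9 was lower at day 14 (−2.74, adjusted p = 0.0276). The 6 trophoblast markers summed to 150 and 73.5 CPM at day 14, against 216 CPM at day 0, where Cdx2, Elf5 and Tpbpa had no count. Of the day 0 sum 214 CPM came from Tfap2c alone. Of the day 14 sums 53.2 and 63.6 CPM came from Krt7, which is also in the epithelial list.

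Genes of energy and lipid metabolism were called in both directions, those of the respiratory and lipid lists less often than genes at large. Of 24 glycolysis and hypoxia genes 9 were higher and 5 lower, or 5 higher and 2 lower without day 14 replicate 2, and of 24 respiratory chain and oxidative genes 2 were higher and 4 lower, or 2 lower without replicate 1. Over all genes tested 24.1% were higher and 20.8% lower, against 37.5% and 20.8% of the glycolysis and hypoxia list. Vegfa, the angiogenic growth factor induced by hypoxia, was at 123 and 117 CPM at day 14, against 18.5 CPM at day 0 (2.70, SE 0.28, adjusted p = 1.36e-05). The glycolysis gene Gapdh was lower, at 15.5 and 14.8 CPM, against 197 CPM (−3.70, SE 0.26, adjusted p = 6.64e-07). These counts do not tell near-identical copies of a gene apart, so the level of Gapdh is uncertain. Idh2, a mitochondrial isocitrate dehydrogenase, was at 96.7 and 93.9 CPM, against 14.2 CPM (2.75, SE 0.34, adjusted p = 5.07e-05). Idh3a of the same list was lower, at 11.3 and 15.6 CPM, against 52.8 CPM (−1.97, SE 0.36, adjusted p = 0.000829). Of 19 cholesterol and fatty acid synthesis genes 2 were higher and 3 lower than at day 0, or 1 higher without day 14 replicate 1, and 10 were lower than at day 8.

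Amino acid and one-carbon genes were mostly lower, 11 of 18 tested, with 1 higher and a median of −1.57. Tdh, the threonine dehydrogenase on which mouse ES cells rely, had 0 counts in both day 14 libraries and 37.6 CPM at day 0, at least 90.3-fold lower at day 14 (adjusted p = 2.9e-05). The cationic amino acid transporter Slc7a3 was at 2.74 and 5.62 CPM, against 139.5 CPM (−5.03, SE 0.72, adjusted p = 0.000352). The higher gene was Aldh1l2, a mitochondrial folate enzyme, at 56.6 and 56.7 CPM, against 3.96 CPM (3.83, SE 0.43, adjusted p = 2.62e-05). Of 19 interferon and antigen presentation genes 8 were higher and 1 lower, or 5 higher without day 14 replicate 1. With all libraries that is 42.1% higher and 5.3% lower, against 24.1% and 20.8% over all genes tested. B2m, the light chain of MHC class I, was at 123 and 108 CPM, against 13.9 CPM (3.06, SE 0.33, adjusted p = 1.88e-05). Ifitm1, an interferon-induced membrane protein that ES cells express, was the lower gene, at 20.4 and 21.4 CPM, against 77.2 CPM.

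The same course was measured in Rybp-null cells, with 2 libraries at day 14 and 1 at day 0, and the difference of the courses was tested as an interaction. It passed for 0 genes with edgeR (0% of those tested), while 1411 had an unadjusted p under 0.05 and DESeq2 called 73. Plagl1 was at 227 ± 102 CPM in null cultures at day 14 and 4.91 CPM in null ES cells, against 21399 ± 1822 CPM and 66.3 CPM in wild type cells (SD, n = 2 at day 14), and its null course minus its wild type course was −2.81 (SE 0.53, adjusted p = 0.0966). Ttn was at 49.3 ± 12 CPM and 132 CPM in the null cells on those days, against 319.6 ± 38.7 CPM and 341 CPM in wild type cells, a difference of courses of −1.32 (SE 0.41, adjusted p = 0.297). Myh6 was at 5.3 ± 6.44 CPM and 10.8 CPM in null cells, against 122 ± 14.1 CPM and 5.94 CPM in wild type cells; the difference was −5.43 (SE 1.13, adjusted p = 0.153). Nothing reported here is therefore shown to be particular to the wild type course, and a p above the threshold does not show that the courses were alike.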

How the data were processed

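RNA-seq read counts of 10 libraries were used. The authors deposited whole-number counts per Ensembl gene, not normalized; per the submitters' processing notes TopHat, HTSeq, DESeq and mm9 were used; their versions, the annotation and the strand setting are not given here, so overlapping genes, antisense genes and near-identical copies cannot be told apart. Of 36191 gene IDs 30946 matched a symbol; chromosomes and gene order came from GENCODE vM21, promoters from RefSeq (GRCm38.p6).

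Genes kept by filterByExpr (minimum count 10) were scaled by TMM and fitted with edgeR 4.0.16 (R 4.3.3), a robust quasi-likelihood model of the 10 libraries in 6 groups (genotype and day), with 4 residual degrees of freedom (common biological coefficient of variation 0.214). Tests were two-sided, with Benjamini-Hochberg adjustment within each comparison and calls at 0.05. The comparisons were wild type day 14 against day 0, day 14 against day 8, and the difference of the day 14 to day 0 course between genotypes. SE was obtained by dividing the size of the log2 fold change by the root of F. A gene can pass the filter through its high group alone, so counts over tested list members are descriptions. Bounds use a floor of 3 counts over the group; intervals are 95% and exact. The model was checked on simulated counts.

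Samples were grouped by title. The comparison, the 43 gene lists (which overlap) and the naming rule were chosen with earlier results of these data known. Named were 10 genes (Pou5f1, Nanog, Sox2, Rybp, Plagl1, Nkx2-5, Isl1, Tnnt2, Myh6 and Ttn), cell type markers, up to 4 called members of each list with the largest change among those with at least 10 CPM in the higher group and up to 2 of the minority direction, and the 10 largest changes each way with at least 20 CPM, ranked with a prior count of 2. Other list members named, such as H19, Peg3, Meg3, Smyd1, Lifr, Socs3, Ezh2, Rnf2, Yaf2, Dnmt1, Mki67, Gja1, Cd68, Itgam, Laptm5, Rhox6 and Rhox9, were picked after their values were seen. Of 894 list entries 14 had no matching ID and were not analysed here. Some list members are counted but not reported by name here. Alternatives were DESeq2 size factors, the DESeq2 1.42.0 Wald test, no filter, a minimum count of 30, a replicate block, fewer libraries and each replicate left out.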

Additional observations from a re-analysis of the deposited data

How the results depend on the processing

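The counts of calls over all genes for day 14 against day 0 stayed within 1.5 times of the reported ones under every alternative run, while counts within some gene lists moved by more, as given beside those printed. With library totals 4 cholesterol and fatty acid synthesis genes and 4 globin and erythroid genes were higher in place of 2 each, and 2 respiratory chain genes lower in place of 4. Of 243 named genes tested there, 206 were called and 13 lost their call without 1 of the day 14 libraries. With library totals in place of TMM, an alternative chosen after seeing the data, the median over all genes was 0.41 in place of 0.18 and 62.3% of the calls were higher in place of 53.6%. Values of uncalled genes that changed sign were Ttn at 0.14, Mki67 at 0.02, Rrm1 at 0.04 and Dnmt1 at 0.10 with library totals, and, leaving out either day 14 replicate, Ttn (−0.22 to 0.03), Thy1 (−0.11 to 0.50), Cnn1 (−0.01 to 0.16), Rhox6 (−2.55 to 3.32) and Rhox9 (−2.74 to 2.37). Day 14 against day 8 was less stable than day 14 against day 0. It gave 1244 calls (770 higher, 474 lower) with no filter and 1816 (1004 higher, 812 lower) with the 5 wild type libraries alone, and, leaving out 1 replicate at a time, 108 to 309 calls (62 to 208 higher, 35 to 101 lower). The difference between genotypes gave 73 calls with DESeq2, 301 with no filter and 0 to 11 leaving out 1 replicate at a time. The causes were not tested. Same-numbered samples did not deviate together (correlations of −0.235 to 0.177 between groups), so the numbers were not taken to pair them; with the replicate block there were 6760 calls for day 14 against day 0, 507 for day 14 against day 8 and 0 for the genotype difference. Depth limits the low genes: a gene under 3 counts in a library cannot be told from absent, and with 1 day 0 library its own spread cannot be measured.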

Other observations

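Of 5 skeletal muscle genes tested 3 were higher and 2 lower, or 1 lower without replicate 1 or without replicate 2 of day 14, in cultures where Myod1, Myog and Myf5 had no count. The fast troponins Tnnt3, at 16.4 and 13.3 CPM at day 14, against 0.66 CPM at day 0, and Tnni2, at 12.2 and 5.62 CPM, against 0 CPM, were higher (adjusted p = 0.000693 and 0.00146, edgeR). Their day 8 levels, 13.1 and 15.5 CPM for Tnnt3 and 6.07 and 5.64 CPM for Tnni2, were in the same range as day 14. The median log2 fold change by chromosome ran between −0.01 on chromosome 18 and 0.45 on chromosome 8, so no chromosome stood apart as a whole by more than that range.

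The day 14 replicates differed in further named genes beyond those of trophoblast, among them Hba-x, Otx2, Zic1 and Upk3b. Zic1 was at 3.65 and 18.1 CPM and Upk3b at 72.4 and 163 CPM. Tex19.1, a gene of germ cells, placenta and ES cells, was at 36.2 and 2.04 CPM at day 14, against 372 CPM at day 0 (−4.32, SE 1.10, adjusted p = 0.0232, edgeR). Replicate 2 held the higher levels of the osteoclast genes Ctsk, Acp5, Atp6v0d2 and Mmp9, and replicate 1 those of Cdh5, Tpbpa, Tfap2c and Tex19.1. Whether these differences come from the cultures or from the libraries was not tested.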
